A study of Mus musculus with 12 samples.

Results

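Of the 45792 genes measured in cultured mouse neural stem cells (NSCs), 10 are described here, namely the Notch receptors *Notch1*, *Notch2* and *Notch3*, the Notch ligands *Dll1*, *Dll3* and *Jag1*, and the Hes and Hey factors *Hes1*, *Hes5*, *Hes6* and *Hey1*. These 10 genes were taken by symbol from a list made with earlier results of these data known, and all 10 were among the 15706 genes that passed the filter on low counts. Notch signaling passes between touching cells. A ligand on the surface of a cell binds a receptor on its neighbour, proteases cut the receptor, and the released intracellular domain joins the DNA-binding protein Rbpj and a Mastermind-like protein to switch on *Hes* and *Hey* genes. The Hes and Hey proteins repress proneural genes, and in the forebrain the pathway is known for holding NSCs in an undifferentiated state.

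RNA came from passage 2 forebrain NSCs of WT mouse pups and of pups lacking *Ncf1*, which encodes a cytosolic subunit of the NADPH oxidase Nox2, at 1 to 2 days of age. The *Ncf1*-/- mice were backcrossed to C57BL/6J and lack the gene in all tissues, so both of their groups share the mutation. All cultures grew in serum-free medium with EGF, FGF, insulin, transferrin, selenite and B-27. WT NSCs were not treated. At 48 h after plating, *Ncf1*-/- NSCs received vehicle (a group labelled as having no treatment) or recombinant mouse Igfbp2, a secreted binding protein of insulin-like growth factors, and RNA was taken 48 h later. The labels give 100 ng/ml Igfbp2, and the methods of the study give a lower dose. Each of the 3 groups had 4 libraries, made from total RNA depleted of rRNA, and the study states that each *Ncf1*-/- pup gave a vehicle-treated and an Igfbp2-treated culture.

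Expected counts, the reads that RSEM assigned to genes, summed to between 18201622 and 34086554 per library. *Ncf1* itself was at or below 0.223 CPM (counts scaled to the library total) in every library, WT included, and so could not check the genotype. Levels below are CPM scaled by TMM factors, which assume that most genes do not differ between libraries. WT replicate 3 stood apart within its group: 6 NSC markers (*Nes*, *Sox2*, *Vim*, *Pax6*, *Prom1* and *Fabp7*) summed to 7634 CPM there and to between 2217 and 3410 CPM in the other WT libraries, against 7319 to 8113 CPM in all 8 *Ncf1*-/- libraries. *Vim* and *Fabp7* made up most of these sums. Of the 6 markers, 2 were called higher and 3 lower in vehicle-treated *Ncf1*-/- NSCs, and *Sox2*, at 371 to 408 CPM in WT libraries, replicate 3 included, was at 191 to 233 CPM in *Ncf1*-/- libraries. Markers of oligodendrocytes summed to between 1090 (WT replicate 3) and 7266 CPM in WT libraries and to between 64.8 and 108 CPM in *Ncf1*-/- libraries, in each of which *Mog* had 3 counts or fewer. All 6 of these markers were called lower without *Ncf1* (vehicle) than in WT NSCs. Of 6 astrocyte markers, 5 were called lower as well, with sums of 6390 to 11460 CPM in WT, 2622 to 3183 CPM in vehicle-treated and 2998 to 4004 CPM in Igfbp2-treated libraries. Markers of endothelial cells summed to at most 6.04 CPM and those of microglia to at most 1.45 CPM. The part of these cell types in the results below was not tested.

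Labels of individual libraries were also compared with sex-linked RNA. In the vehicle-treated libraries 4 Y-linked genes summed to between 105 and 116 CPM, and in the Igfbp2-treated libraries to between 7.79 and 9.18 CPM, although the study states that these cultures came from the same pups. *Xist* was at 72.3 to 87.8 CPM and 166 to 275 CPM in the same groups. This difference and the treatment divide the 8 *Ncf1*-/- libraries in the same way and cannot be told apart. WT replicates 1 to 3 had Y-linked sums of 107 to 118 CPM, whereas WT replicate 4 had 6.46 CPM. A sample sheet in the supplementary software of the study lists the library labelled WT replicate 4 as an apocynin-treated culture (apocynin inhibits NADPH oxidases), while its deposited label says WT. Results that rest on WT replicates 3 and 4 are therefore also given without them.

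**Figure D1:**
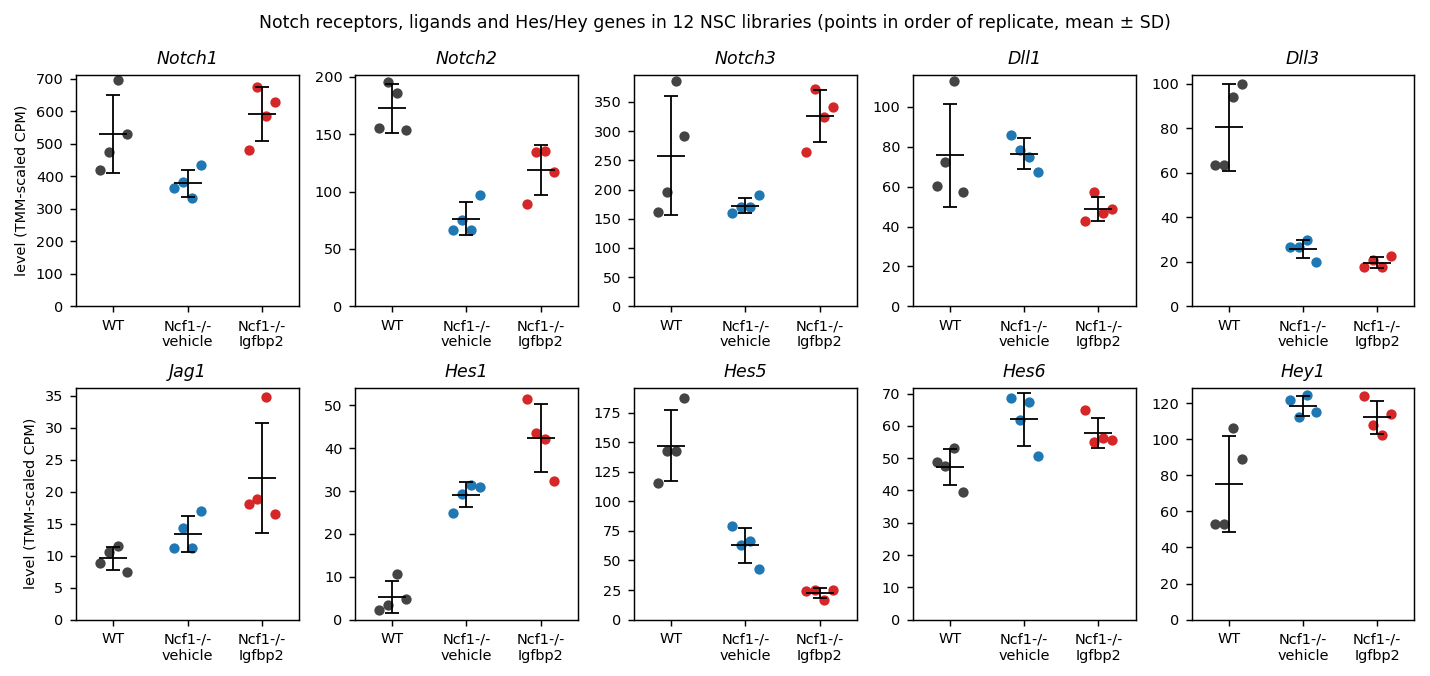
Levels of the 10 Notch genes (TMM-scaled CPM, linear axes from 0) in the 4 libraries of each of 3 groups, with points in the order of the replicates and bars for the mean ± SD. *Hes1* lay between 2.18 and 10.8 CPM in WT and above 24 CPM in every *Ncf1*-/- library, while *Hes5* stepped down from WT (116 to 187 CPM) through vehicle-treated (42.6 to 78.8 CPM) to Igfbp2-treated *Ncf1*-/- NSCs (16.4 to 25.0 CPM).

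Vehicle-treated *Ncf1*-/- NSCs differed from WT NSCs at 8 of the 10 genes (edgeR's quasi-likelihood test, Benjamini-Hochberg adjusted p under 0.05), where 57.2% of all genes tested were called. *Notch1*, *Notch2*, *Notch3*, *Dll3* and *Hes5* were called lower (28.2% of all genes were), and *Hes1*, *Hes6* and *Hey1* were called higher (28.9% of all genes were). Igfbp2-treated and vehicle-treated *Ncf1*-/- NSCs, which the Y-linked genes also separate, differed at 6 of the 10, against 25.0% of all genes. *Notch1*, *Notch2*, *Notch3* and *Jag1* rose, where 14.2% of all genes were called higher, and *Dll1* and *Hes5* fell, where 10.7% were called lower. Igfbp2-treated *Ncf1*-/- NSCs differed from WT NSCs at 8 genes, against 62.4% of all genes, namely all but *Notch1* and *Notch3*. Of these, *Jag1*, *Hes1*, *Hes6* and *Hey1* were called higher (31.6% of all genes were) and *Notch2*, *Dll1*, *Dll3* and *Hes5* lower (30.8% were). The median log2 fold change over the 10 genes was −0.23 between the genotypes and 0.23 between the treatments, beside 0.02 and 0.04 over all genes tested. The split between the treatments depended on the scale. With library totals as the only scaling 1 of the 10 was called higher and 4 lower, beside 648 and 5258 of all genes. On the log2(TPM + 1) scale none was called higher and 4 were called lower, beside 200 and 6154 of all genes. These comparisons share libraries: the vehicle-treated group stands in the first and, with the opposite sign, in the next. In RNA from whole cultures, fewer cells of a type and less RNA per cell cannot be told apart.

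**Figure D2:**
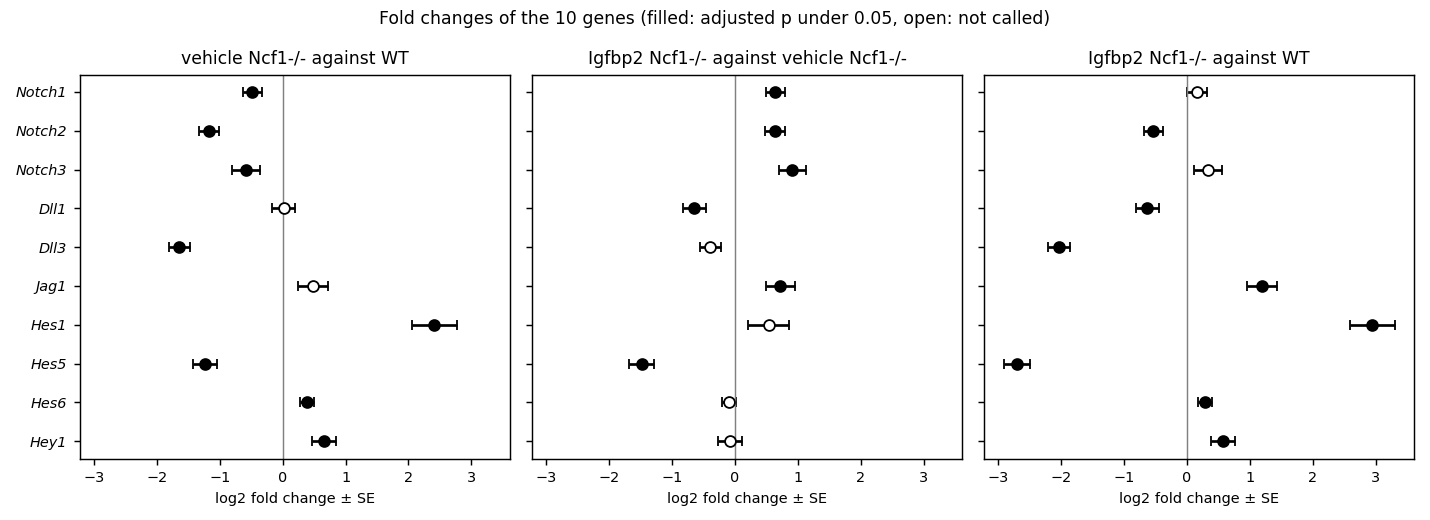
log2 fold changes ± SE of the 10 genes in 3 comparisons from edgeR on TMM-scaled counts; filled symbols are called at an adjusted p under 0.05 and open symbols are not. *Hes1* (2.41) and *Hes5* (−1.23) lie on opposite sides of 0 between the genotypes, and with Igfbp2 the 3 receptors lie between 0.64 and 0.92, though *Notch1* lies at −0.02 on the log2(TPM + 1) scale and turns to 0.10 between the genotypes with an offset for transcript length.

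Among the receptors, *Notch2* (chr3:98013527-98150361, plus strand, GRCm38), a receptor with an intracellular domain much like that of Notch1, separated the genotypes most. It was at 155, 195, 186 and 153 CPM in WT replicates 1 to 4, at 66.7, 74.8, 66.9 and 97.4 CPM in vehicle-treated and at 89.0, 135, 135 and 117 CPM in Igfbp2-treated *Ncf1*-/- NSCs. Every WT library lay above every *Ncf1*-/- library of either treatment, while the 2 *Ncf1*-/- groups overlapped. The log2 fold change was −1.17 ± 0.16 (SE) between vehicle-treated *Ncf1*-/- and WT NSCs (edgeR adjusted p = 3.07e-05) and −0.54 ± 0.15 between Igfbp2-treated *Ncf1*-/- and WT NSCs (edgeR adjusted p = 0.00845). With Igfbp2 *Notch2* rose by 0.64 ± 0.15 (edgeR adjusted p = 0.0114), and this call was lost without vehicle-treated replicate 3 (0.54, edgeR adjusted p = 0.0521) or Igfbp2-treated replicate 2 (0.54, edgeR adjusted p = 0.0518).

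*Notch1* (chr2:26457903-26516663, minus strand), the receptor with the highest level of the 3, was at 418, 475, 695 and 529 CPM in WT replicates 1 to 4, at 365, 382, 334 and 433 CPM in vehicle-treated and at 480, 674, 586 and 629 CPM in Igfbp2-treated *Ncf1*-/- NSCs. The Igfbp2-treated libraries all lay above the vehicle-treated ones, and both overlapped WT, in which replicate 3 was highest. Between the genotypes the difference was −0.48 ± 0.15 (edgeR adjusted p = 0.0164), and it was −0.29 without WT replicates 3 and 4 (edgeR adjusted p = 0.0886). *Notch1* was higher by 0.65 ± 0.15 in Igfbp2-treated than in vehicle-treated *Ncf1*-/- NSCs (edgeR adjusted p = 0.0108). Against WT the Igfbp2-treated libraries differed by 0.16 ± 0.15 (edgeR adjusted p = 0.376), and by 0.32 once WT replicate 3 was left out (edgeR adjusted p = 0.0444).

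*Notch3* (chr17:32120820-32166852, minus strand), known from vessel walls and also present in NSCs, was at 161, 195, 385 and 291 CPM in WT replicates 1 to 4, at 160, 170, 170 and 190 CPM in vehicle-treated and at 265, 372, 325 and 340 CPM in Igfbp2-treated *Ncf1*-/- NSCs. WT replicates 1 and 2 were at the level of the vehicle-treated libraries, and WT replicates 3 and 4 were at or above that of the Igfbp2-treated ones. Its rise with Igfbp2 was 0.92 ± 0.22 (edgeR adjusted p = 0.0106) with no overlap of the groups, which are the groups that the Y-linked genes also separate. Between the genotypes the difference was −0.58 ± 0.22 (edgeR adjusted p = 0.0349) and rested on few libraries. It was −0.32 without WT replicate 3 (edgeR adjusted p = 0.118), −0.54 without WT replicate 4 (edgeR adjusted p = 0.062) and −0.09 without both (edgeR adjusted p = 0.559). Leaving out vehicle-treated replicate 1, 2 or 3 or Igfbp2-treated replicate 4 also ended the call, with edgeR adjusted p = 0.0823, 0.0728, 0.058 and 0.0504. Without WT replicate 3 *Notch3* was higher in Igfbp2-treated *Ncf1*-/- than in WT NSCs (0.60, edgeR adjusted p = 0.00842), which with all libraries it was not (0.33 ± 0.22, edgeR adjusted p = 0.196). The 6 markers of mural cells, the vessel wall cells that express *Notch3*, summed to 9.21 to 24.4 CPM in WT, 6.88 to 8.43 CPM in vehicle-treated and 14.7 to 18.2 CPM in Igfbp2-treated libraries, with *Kcnj8* at 3 counts or fewer throughout. *Pdgfrb* made up most of each WT sum, at 4.88 to 23.5 CPM, and was at 0.177 to 0.485 CPM with vehicle. *Acta2* made up most of the other sums, at 5.49 to 6.86 CPM with vehicle and 11.3 to 14.5 CPM with Igfbp2. In WT it was at 0.0557 to 2.98 CPM. Of the 4 markers that passed the filter, 2 were called higher and 1 lower between the genotypes (28.9% and 28.2% of all genes). With Igfbp2, 2 were called higher (14.2% of all genes were). The part of these markers in the result was not tested.

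Receptor transcripts are long, and long transcripts as a class differed between the groups. The mean transcript length in the files was 8766 bases for *Notch1*, 9771 for *Notch2* and 8044 for *Notch3*. Over the 3141 genes with the longest transcripts (3989 bases or more, 1 of 5 bins) the median log2 fold change was −0.33 between the genotypes and 0.17 between the treatments, and over the 3142 with the shortest it was 0.24 and 0.05. With an offset for transcript length per library, an alternative added after this trend was seen, the genotype difference was 0.10 for *Notch1* (edgeR adjusted p = 0.508), −0.54 for *Notch2* (edgeR adjusted p = 9.31e-05) and −0.03 for *Notch3* (edgeR adjusted p = 0.899). The rise with Igfbp2 was then 0.37 for *Notch1* (edgeR adjusted p = 0.048), 0.34 for *Notch2* (edgeR adjusted p = 0.0104) and 0.65 for *Notch3* (edgeR adjusted p = 0.0317). Thus the lower *Notch2* in *Ncf1*-/- NSCs and the rise of all 3 receptors with Igfbp2 were called with and without the offset, and the lower *Notch1* and *Notch3* in *Ncf1*-/- NSCs were not.

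The rise of the receptors also depended on the scale. A set of 5 abundant structural RNAs took 56.0 to 60.3% of the TPM (the share of transcripts that RSEM estimates for a gene, allowing for its length) in vehicle-treated and 62.1 to 72.3% in Igfbp2-treated libraries. On the log2(TPM + 1) scale the median of all genes shifted by −0.30 with Igfbp2, and *Notch1*, *Notch2* and *Notch3* differed by −0.02, 0.10 and 0.41, none of them called (limma adjusted p = 0.947, 0.711 and 0.242). Relative to that median they lay 0.27, 0.40 and 0.71 higher. Scaled by library totals alone, the median of all genes was −0.23 and the receptors differed by 0.37, 0.37 and 0.64. *Notch3* was called there, and *Notch1* and *Notch2* were not. With the structural RNAs removed from TPM the median was −0.10, and again *Notch3* was called and *Notch1* and *Notch2* were not. Of the 3923 genes called between the treatments 2238 were called higher, whereas 648 of 5906 were with library totals and 200 of 6354 on the log2(TPM + 1) scale. The same counts were 4545 of 8978 and, with library totals, 6024 of 9183 between the genotypes.

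**Figure D3:**
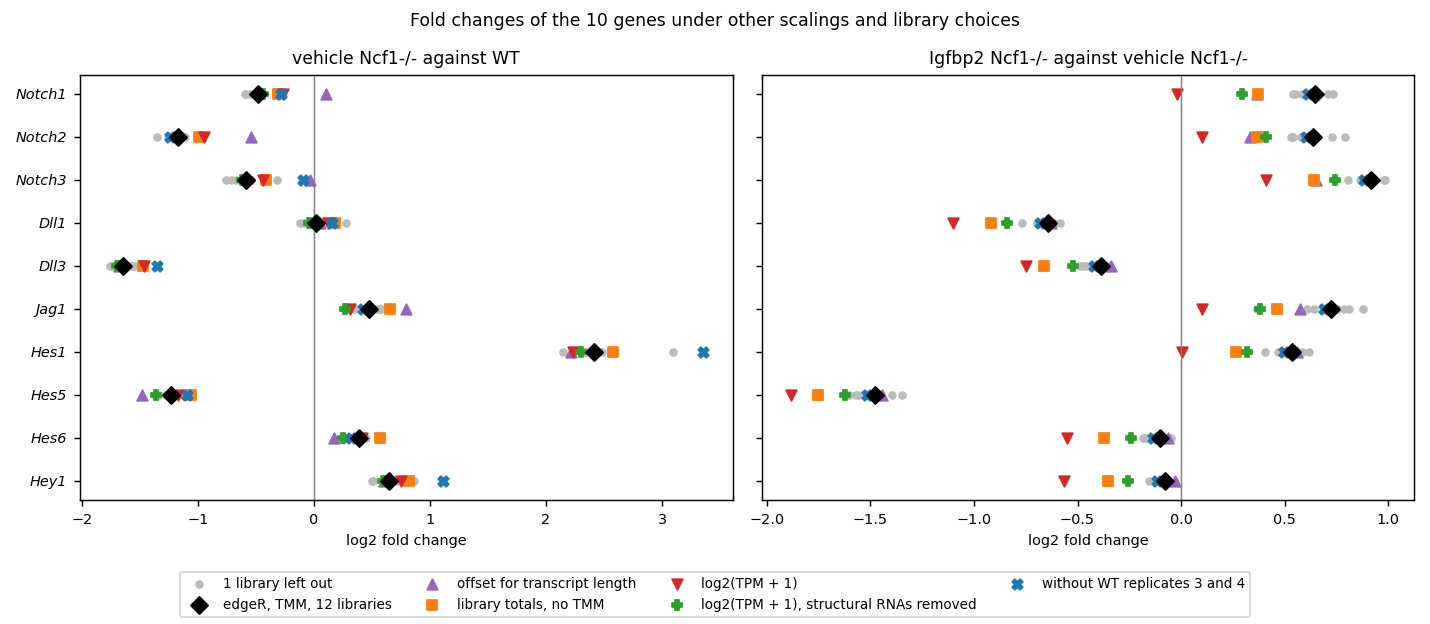
log2 fold changes of the 10 genes between the genotypes (left) and the treatments (right) under other scalings and library choices; grey points leave out 1 library each. *Hes1*, *Hes5*, *Dll3* and *Notch2* keep their side of 0 in the left panel, while *Notch1* turns to 0.10 with the length offset and *Dll1* lies on both sides, and in the right panel *Hes5* stays between −1.88 and −1.35 and *Notch1* turns to −0.02 on the log2(TPM + 1) scale.

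The ligands went 3 ways. *Dll3* (chr7:28293553-28302238, minus strand), a divergent ligand that stays largely inside the cell and is known to dampen Notch signaling there, was at 63.8, 63.5, 94.4 and 100 CPM in WT replicates 1 to 4, at 26.5, 26.8, 29.7 and 20.1 CPM in vehicle-treated and at 17.6, 21.0, 17.6 and 22.5 CPM in Igfbp2-treated *Ncf1*-/- NSCs. All *Ncf1*-/- libraries lay below all WT libraries. *Dll3* was 3.13-fold lower without *Ncf1* (vehicle) than in WT NSCs (log2 fold change −1.64 ± 0.17, edgeR adjusted p = 3.99e-06) and 4.09-fold lower with Igfbp2 (−2.03 ± 0.17, edgeR adjusted p = 8.7e-07). Between the treatments it differed by −0.39 ± 0.17 (edgeR adjusted p = 0.112), and by −0.42 with the preparation as a block (edgeR adjusted p = 0.0488). It was also called lower with only these 2 groups in the fit, without WT replicates 3 and 4, with library totals (−0.66, edgeR adjusted p = 0.0102) and on the log2(TPM + 1) scale (−0.75, limma adjusted p = 0.0109). The median of all genes was −0.23 with library totals and −0.30 on the log2(TPM + 1) scale.

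*Dll1* (chr17:15367354-15376872, minus strand), the ligand that differentiating progenitors present to their neighbours, was at 60.2, 72.5, 113 and 57.1 CPM in WT replicates 1 to 4, at 85.8, 78.5, 74.7 and 67.2 CPM in vehicle-treated and at 43.0, 57.3, 46.8 and 48.8 CPM in Igfbp2-treated *Ncf1*-/- NSCs. The vehicle-treated libraries lay within the WT range and the Igfbp2-treated ones below all vehicle-treated ones. The genotypes differed by 0.02 ± 0.18 (edgeR adjusted p = 0.949), a difference whose sign changed with the library left out. With Igfbp2 *Dll1* fell to 1.56-fold lower (−0.64 ± 0.18, edgeR adjusted p = 0.0241), a call that was lost without vehicle-treated replicate 1 (−0.59, edgeR adjusted p = 0.0698) or 2 (−0.63, edgeR adjusted p = 0.0603) or Igfbp2-treated replicate 1 (−0.61, edgeR adjusted p = 0.0535). Against WT the difference was −0.63 ± 0.18 (edgeR adjusted p = 0.00946), and −0.37 without WT replicate 3 (edgeR adjusted p = 0.0147).

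*Jag1* (chr2:137081456-137116644, minus strand), a ligand of the Serrate type that NSCs themselves carry, had the lowest level of the 10 genes per kilobase in every group. It was at 8.87, 10.6, 11.5 and 7.46 CPM in WT replicates 1 to 4, at 11.2, 14.3, 11.1 and 17.0 CPM in vehicle-treated and at 18.1, 18.9, 34.9 and 16.5 CPM in Igfbp2-treated *Ncf1*-/- NSCs. All Igfbp2-treated libraries were above all WT libraries, and replicate 3 was far above the others. *Jag1* was 2.29-fold higher in Igfbp2-treated *Ncf1*-/- than in WT NSCs (1.20 ± 0.24, edgeR adjusted p = 0.000713), a difference that was 0.42 on the log2(TPM + 1) scale and not called there (limma adjusted p = 0.131). The rise with Igfbp2 was 0.72 ± 0.23 (edgeR adjusted p = 0.0389) and was carried in large part by Igfbp2-treated replicate 3, without which it was 0.37 (edgeR adjusted p = 0.15). That call was also lost without Igfbp2-treated replicate 2, vehicle-treated replicate 1, 2 or 3 or WT replicate 2 (edgeR adjusted p between 0.0548 and 0.123), with the preparation as a block (0.64, edgeR adjusted p = 0.0647) and on the log2(TPM + 1) scale (0.10, limma adjusted p = 0.734). Between the genotypes *Jag1* differed by 0.48 ± 0.24 (edgeR adjusted p = 0.103), by 0.45 without Igfbp2-treated replicate 3 (edgeR adjusted p = 0.0311) and by 0.79 with the length offset (edgeR adjusted p = 0.00592).

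The 2 Hes genes that act as the main effectors of Notch in NSCs moved in opposite directions. *Hes1* (chr16:30064384-30067796, plus strand), a repressor of proneural genes, was at 2.18, 3.40, 10.8 and 4.79 CPM in WT replicates 1 to 4 (48 to 375 counts), at 25.0, 29.4, 31.3 and 31.0 CPM in vehicle-treated and at 51.6, 43.5, 42.1 and 32.3 CPM in Igfbp2-treated *Ncf1*-/- NSCs. The 3 groups did not overlap, and the highest WT library was replicate 3. *Hes1* was 5.32-fold higher without *Ncf1* (vehicle) than in WT NSCs (2.41 ± 0.35, edgeR adjusted p = 6.62e-05) and 7.73-fold higher with Igfbp2 (2.95 ± 0.36, edgeR adjusted p = 1.35e-05). Without WT replicate 3 the log2 fold change between the genotypes was 3.09 (edgeR adjusted p = 7.85e-08), and without WT replicates 3 and 4 it was 3.35 (edgeR adjusted p = 1.26e-08). Between the treatments *Hes1* differed by 0.54 ± 0.32 (edgeR adjusted p = 0.233), although the groups did not overlap (exact two-sided permutation p = 0.0286, the smallest that 4 against 4 libraries can give). That difference was called without WT replicate 3 (0.54, edgeR adjusted p = 0.0265). It was also called with only these 2 groups in the fit, both without the preparation as a block and with it (0.48 with the block, edgeR adjusted p = 0.0221). On the log2(TPM + 1) scale it was 0.00 (limma adjusted p = 0.994).

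*Hes5* (chr4:154960923-154962371, plus strand), a Notch target used as a mark of active Notch signaling in NSCs, was at 116, 143, 143 and 187 CPM in WT replicates 1 to 4, at 78.8, 63.1, 66.1 and 42.6 CPM in vehicle-treated and at 23.9, 24.8, 16.4 and 25.0 CPM in Igfbp2-treated *Ncf1*-/- NSCs. Each group lay wholly below the one before it. *Hes5* was 2.35-fold lower without *Ncf1* (vehicle) than in WT NSCs (−1.23 ± 0.19, edgeR adjusted p = 0.000128), and with Igfbp2 it fell to 2.78-fold lower again (−1.48 ± 0.20, edgeR adjusted p = 0.000869). Igfbp2-treated *Ncf1*-/- NSCs were thus 6.53-fold below WT NSCs (−2.71 ± 0.21, edgeR adjusted p = 3.55e-07). No library left out ended any of these calls, and the log2 fold change between the treatments stayed between −1.60 and −1.35. The study's own one-way model on TPM gave −1.97 between the treatments, with a Tukey p of 0.203 after adjustment over all genes.

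The promoter of *Hes5* is shown because this gene was called in all 3 comparisons and because Rbpj, which binds Notch targets, reads the core letters TGGGAA. *Notch2* was also called in all 3 comparisons, but the 250 bases before its start hold neither TGGGAA nor its reverse complement. RefSeq entries for the 250 bases before the start (GRCm38.p6) were matched for 8 of the 10 genes, all but *Hes1* and *Hey1*. The window of *Hes5* is chr4:154960673-154960922 on the plus strand, with TGGGAA and its reverse complement TTCCCA in capitals.
Hes5: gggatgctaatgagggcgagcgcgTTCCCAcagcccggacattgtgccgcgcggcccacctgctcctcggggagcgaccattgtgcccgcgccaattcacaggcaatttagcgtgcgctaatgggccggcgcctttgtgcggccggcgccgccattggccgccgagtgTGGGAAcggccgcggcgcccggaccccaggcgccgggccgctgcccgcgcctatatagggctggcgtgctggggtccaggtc
TTCCCA lies at −226 to −221 and TGGGAA at −82 to −77, counted from the base before the start as −1. These letters, on either strand, occur in 21.6% of the 32851 promoter windows of this length in the table, and among the windows of the 8 genes they occur only in that of *Hes5*. CACGTG, an E-box whose letters read the same on both strands, occurs in 6.02% of all windows and in none of these.

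*Hes6* (chr1:91411483-91414038, minus strand), a Hes protein that can oppose Hes1 and favours differentiation, differed by at most 0.39 in any comparison on the TMM scale. It was at 48.8, 47.7, 53.1 and 39.5 CPM in WT replicates 1 to 4, at 68.5, 61.8, 67.2 and 50.6 CPM in vehicle-treated and at 64.8, 54.9, 56.1 and 55.7 CPM in Igfbp2-treated *Ncf1*-/- NSCs. The genotypes overlapped through vehicle-treated replicate 4, and the Igfbp2-treated libraries lay just above WT. The difference between the genotypes was 0.39 ± 0.11 (edgeR adjusted p = 0.00912) and 0.17 with the length offset (edgeR adjusted p = 0.11). Between Igfbp2-treated *Ncf1*-/- and WT NSCs it was 0.29 ± 0.11 (edgeR adjusted p = 0.0373), a call lost without any 1 of the 4 Igfbp2-treated replicates, vehicle-treated replicate 3 or WT replicates 1, 2 or 4 (0.15 to 0.31, edgeR adjusted p between 0.0521 and 0.251), and it was −0.14 on the log2(TPM + 1) scale. Between the treatments it was −0.10 ± 0.11 (edgeR adjusted p = 0.539), and it was called lower with library totals (−0.37, edgeR adjusted p = 0.0237) and on the log2(TPM + 1) scale (−0.55, limma adjusted p = 0.01). The median of all genes was −0.23 and −0.30 on those scales.

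*Hey1* (chr3:8663359-8667256, minus strand), a Hes-related repressor of the Hairy type, was at 53.2, 53.1, 106 and 89.1 CPM in WT replicates 1 to 4, at 122, 113, 125 and 115 CPM in vehicle-treated and at 124, 108, 102 and 114 CPM in Igfbp2-treated *Ncf1*-/- NSCs. WT replicates 1 and 2 were lowest, and WT replicates 3 and 4 came near to or into the *Ncf1*-/- range. *Hey1* was 1.57-fold higher without *Ncf1* (vehicle) than in WT NSCs (0.65 ± 0.19, edgeR adjusted p = 0.01), and the log2 fold change was 1.11 without WT replicates 3 and 4 (edgeR adjusted p = 1.53e-07). Between the treatments it differed by −0.08 ± 0.19 (edgeR adjusted p = 0.784). Igfbp2-treated *Ncf1*-/- NSCs differed from WT NSCs by 0.57 ± 0.19 (edgeR adjusted p = 0.0185), and this call was lost without Igfbp2-treated replicate 1 (0.47, edgeR adjusted p = 0.0604), WT replicate 1 (0.44, edgeR adjusted p = 0.0505) or WT replicate 2 (0.38, edgeR adjusted p = 0.0721). It was also lost with library totals (0.47, edgeR adjusted p = 0.0533), with only these 2 groups in the fit (0.55, edgeR adjusted p = 0.0538) and on the log2(TPM + 1) scale (0.19, limma adjusted p = 0.508).

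Of the 10 genes, the groups did not overlap at 5 between the genotypes, where 51.2% of all genes did not, at 5 between the treatments, where 34.1% did not, and at 6 between Igfbp2-treated *Ncf1*-/- and WT NSCs, where 54.3% did not.

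Levels of different genes were compared as TMM-scaled CPM per kilobase of effective length. In WT NSCs *Hes5* led with 142 ± 28.0 CPM per kb (SD, n = 4), clear of *Notch1* with 60.2 ± 14.5. *Hes6*, *Dll3*, *Hey1*, *Notch3* and *Dll1* followed between 40.6 and 27.8, each overlapping the next, then *Notch2* with 17.5 ± 2.02, and *Hes1* (4.84 ± 3.60) and *Jag1* (1.91 ± 0.388) were last and overlapped. In vehicle-treated *Ncf1*-/- NSCs *Hes5* (60.8 ± 14.5), *Hey1* (54.9 ± 3.32), *Hes6* (53.0 ± 6.59) and *Notch1* (47.7 ± 4.32) were first and each overlapped its neighbour. *Dll1*, *Hes1* and *Notch3* formed the next group (28.7 to 21.9), followed by *Dll3* and *Notch2* (11.3 and 8.17, overlapping) and by *Jag1* (2.65 ± 0.579). In Igfbp2-treated *Ncf1*-/- NSCs *Notch1* was first (65.5 ± 9.58), overlapping *Hey1* (51.0 ± 3.97), and *Hes5* (21.3 ± 4.10) came below *Hes1* (34.5 ± 5.94) with no overlap. Of the summed level of the 3 receptors per kilobase, *Notch1* made up 52.7 to 56.7% in WT, 59.1 to 63.5% in vehicle-treated and 54.0 to 55.5% in Igfbp2-treated libraries. *Notch2* made up 12.7 to 20.0%, 9.64 to 11.3% and 9.56 to 11.3% in the same order, and *Notch3* 24.2 to 33.3%, 26.8 to 30.0% and 34.2 to 34.9%. The *Notch1* share of the vehicle-treated libraries lay above that of both other groups, and the *Notch2* share of WT above that of both *Ncf1*-/- groups.

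The balance of *Hes5* and *Hes1* turned over across the groups. Per kilobase, *Hes5* was 46.8, 50.1, 13.7 and 43.4 times *Hes1* in WT replicates 1 to 4, 3.38, 2.66, 2.42 and 1.59 times in vehicle-treated and 0.565, 0.693, 0.427 and 0.859 times in Igfbp2-treated *Ncf1*-/- libraries. WT replicate 3 was the WT library nearest to the *Ncf1*-/- libraries. In all 4 Igfbp2-treated libraries *Hes1* exceeded *Hes5*, and in all other libraries *Hes5* exceeded *Hes1*. This ratio is taken within a library and does not depend on the scaling between libraries.

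**Figure D4:**
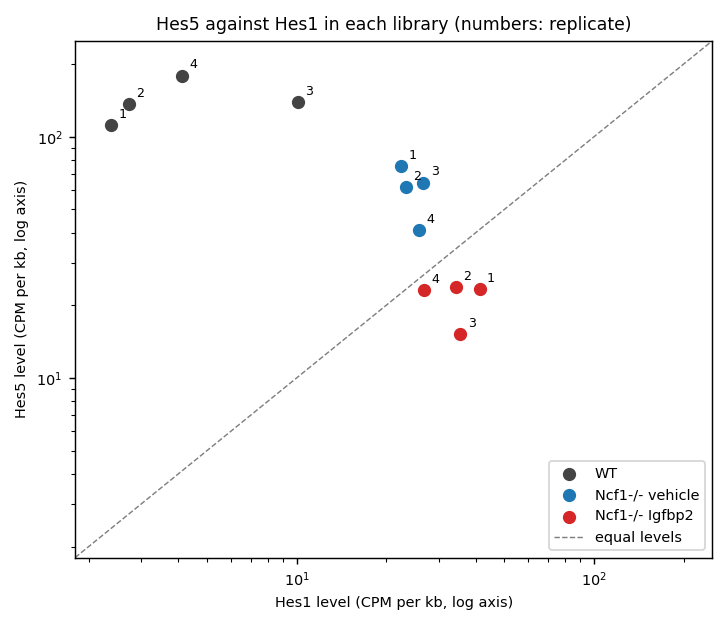
Level of *Hes5* against that of *Hes1* (CPM per kb, both axes logarithmic) in each of 12 libraries, numbered by replicate, with a dashed line where the levels are equal. WT libraries lie far above the line (ratios of 13.7 to 50.1), vehicle-treated *Ncf1*-/- libraries nearer to it (1.59 to 3.38) and Igfbp2-treated ones below it (0.427 to 0.859).

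Around these genes stood a list of 70 Notch pathway genes that includes the 10, of which 62 passed the filter on low counts. Vehicle-treated *Ncf1*-/- NSCs had 38 of the 62 called, 10 higher and 28 lower, against 57.2% of all genes, with a median log2 fold change of −0.28 beside 0.02 over all genes. Between the treatments 19 of them were called, 17 up with Igfbp2 and 2 down (*Dll1* and *Hes5*), against 25.0% of all genes, with a median of 0.19 beside 0.04. This last count moved with single libraries: it was 9 without Igfbp2-treated replicate 2, 11 without Igfbp2-treated replicate 3 or vehicle-treated replicate 1 or 3, and 12 without vehicle-treated replicate 2. It was 29 (21 up and 8 down) without WT replicates 3 and 4. The count over all genes moved as well, from 3923 to 2550 without Igfbp2-treated replicate 2. It was between 2294 and 2844 without 1 of the other libraries just named, and 6028 without WT replicates 3 and 4. Its direction depended on the scale. With library totals 4 were called higher and 14 lower, beside 648 and 5258 of all genes. On the log2(TPM + 1) scale none was called higher and 14 lower, beside 200 and 6154. With the structural RNAs removed from TPM 6 were called higher and 7 lower, beside 711 and 2451. Tukey's test on TPM, which the study used, called none higher and 2 lower, beside 64 and 2084. The rises with Igfbp2 given below are relative to the TMM scale. Igfbp2-treated *Ncf1*-/- NSCs differed from WT NSCs at 40 of the 62, 14 higher and 26 lower, against 62.4% of all genes.

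**Figure D5:**
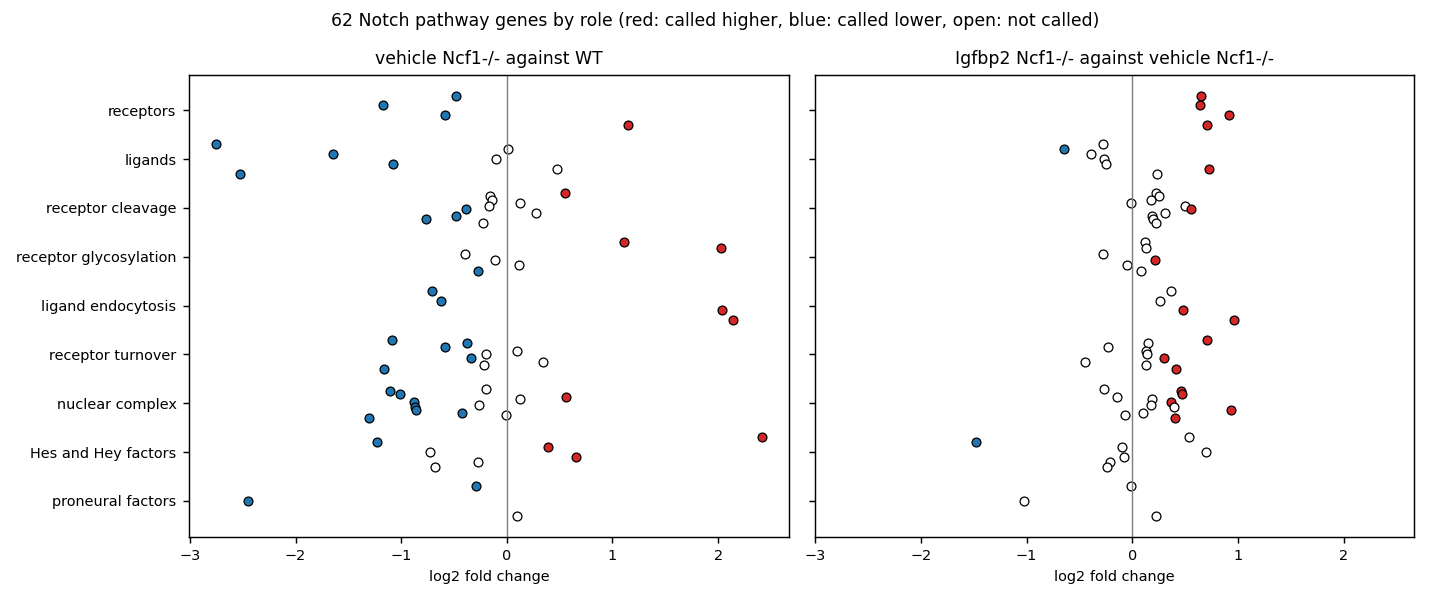
log2 fold changes of 62 Notch pathway genes by role, between the genotypes (left) and the treatments (right); red genes were called higher, blue lower and open symbols not called. Between the genotypes 28 genes were called lower and 10 higher, and between the treatments 2 were called lower and 17 higher on TMM-scaled counts, against 14 lower and none higher on the log2(TPM + 1) scale.

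In the receptor list *Notch4*, named after its values were seen and known from endothelial cells, was the 1 receptor called higher without *Ncf1*. Its mean was 1.84 CPM in WT, 4.10 CPM in vehicle-treated and 6.70 CPM in Igfbp2-treated *Ncf1*-/- NSCs, with log2 fold changes of 1.15 ± 0.22 between the genotypes (edgeR adjusted p = 0.000623) and 0.71 ± 0.21 between the treatments (edgeR adjusted p = 0.0256). The call between the treatments was lost without Igfbp2-treated replicate 2 (0.66, edgeR adjusted p = 0.0732) or 3 (0.52, edgeR adjusted p = 0.102) or vehicle-treated replicate 1 (0.61, edgeR adjusted p = 0.0791), and the difference was −0.23 on the log2(TPM + 1) scale. The call between the genotypes was lost on that scale (0.34, limma adjusted p = 0.0594). Per kilobase the means were 1.11 CPM in WT, 1.74 CPM in vehicle-treated and 1.75 CPM in Igfbp2-treated *Ncf1*-/- NSCs. Of 7 ligands tested, 4 were called lower without *Ncf1* (vehicle) than in WT NSCs and none higher, where 28.2% and 28.9% of all genes were, with *Dll3* at the smallest adjusted p-value.

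The 4 listed ubiquitin ligases that make ligands active by endocytosis were all called between the genotypes, where 57.2% of all genes were. *Neurl1b*, a Neuralized-type ligase, had means of 5.93 ± 0.756, 26.2 ± 2.56 and 51.0 ± 6.81 CPM (SD, n = 4) in WT, vehicle-treated and Igfbp2-treated *Ncf1*-/- NSCs. It was called higher at both steps, by 2.14 ± 0.12 between the genotypes (edgeR adjusted p = 6.09e-08) and by 0.96 ± 0.11 with Igfbp2 (edgeR adjusted p = 0.000512). Between the genotypes both Neuralized-type genes of the list were higher (28.9% of all genes were). Both Mindbomb-type genes (*Mib1* and *Mib2*, named after their values were seen) were lower (28.2% of all genes were). With Igfbp2, *Neurl1b* and *Neurl1a* were called higher (14.2% of all genes were). Neither *Mib* gene was called, though both were near the threshold (*Mib1* 0.37, edgeR adjusted p = 0.0558, *Mib2* 0.26, edgeR adjusted p = 0.055). *Mib1* was called with the preparation as a block (0.34, edgeR adjusted p = 0.0384), without vehicle-treated replicate 4 (0.53, edgeR adjusted p = 0.00482) or WT replicate 3 (0.37, edgeR adjusted p = 0.0477), and *Mib2* without WT replicate 1 (0.27, edgeR adjusted p = 0.0479) or 3 (0.27, edgeR adjusted p = 0.0472). On the log2(TPM + 1) scale both differences were below 0. The rise of *Neurl1a* (8.21 to 11.5 CPM, 0.48 ± 0.15, edgeR adjusted p = 0.0304) was lost without any 1 of vehicle-treated or Igfbp2-treated replicates 1 to 3 (0.40 to 0.50, edgeR adjusted p between 0.064 and 0.104), and that of *Neurl1b* was 0.47 on the log2(TPM + 1) scale (limma adjusted p = 0.0552).

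Enzymes that add sugars to the receptors were called higher at 2 and lower at 1 of 6 genes between the genotypes, where 57.2% of all genes were called. *Eogt*, which adds O-linked GlcNAc to EGF repeats, had the smallest adjusted p-value, with means of 3.48 CPM in WT and 7.54 CPM in vehicle-treated *Ncf1*-/- NSCs (1.11 ± 0.12, edgeR adjusted p = 5.21e-06). The other was *Lfng*, named after its value was seen, a Fringe enzyme that tunes which ligand a receptor answers, at 54.3 against 221 CPM (2.02 ± 0.28, edgeR adjusted p = 4.56e-05). With Igfbp2, 1 of the 6 rose, *Pofut1*, which adds O-linked fucose (46.1 to 53.4 CPM, 0.21 ± 0.06, edgeR adjusted p = 0.0281), though the difference was −0.20 on the log2(TPM + 1) scale. That call was lost without any 1 of the 4 Igfbp2-treated replicates, vehicle-treated replicates 1 to 3 or WT replicates 2 or 4 (0.16 to 0.21, edgeR adjusted p between 0.0568 and 0.156). Of 10 genes of receptor cleavage, 1 was higher and 3 were lower between the genotypes, again beside 57.2% of all genes called. *Furin*, which cuts the receptor on its way to the surface, was the 1 cleavage gene that rose with Igfbp2 (51.0 to 74.8 CPM, 0.55 ± 0.11, edgeR adjusted p = 0.00418), and it differed by 0.08 on the log2(TPM + 1) scale (limma adjusted p = 0.742).

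Genes of receptor turnover were called lower at 5 of 9 and higher at none in vehicle-treated *Ncf1*-/- against WT NSCs (28.2% and 28.9% of all genes). With Igfbp2 3 of the 9 were called higher and none lower on the TMM scale (14.2% and 10.7% of all genes). *Numbl*, an inhibitor that directs receptors to endocytosis, was at 47.6 CPM in WT and 21.3 CPM in vehicle-treated *Ncf1*-/- NSCs (−1.16 ± 0.10, edgeR adjusted p = 7.07e-07). *Dtx1*, a ubiquitin ligase of the receptor and itself a Notch target, had means of 70.2 ± 10.8 CPM in WT, 33.1 ± 1.48 CPM in vehicle-treated and 54.1 ± 3.40 CPM in Igfbp2-treated *Ncf1*-/- NSCs (SD, n = 4). It was lower between the genotypes (−1.08 ± 0.10, edgeR adjusted p = 1.73e-06) and rose with Igfbp2 (0.71 ± 0.10, edgeR adjusted p = 0.000943), a difference of 0.16 on the log2(TPM + 1) scale (limma adjusted p = 0.462). *Nrarp*, a Notch target that feeds back on the intracellular domain, was at 17.5 to 43.1, 33.9 to 39.4 and 23.9 to 28.9 CPM in WT, vehicle-treated and Igfbp2-treated *Ncf1*-/- NSCs and was not called between the genotypes (0.34 ± 0.20, edgeR adjusted p = 0.169) or the treatments (−0.45 ± 0.20, edgeR adjusted p = 0.122). It was called higher between the genotypes without WT replicate 3 (0.62, edgeR adjusted p = 0.00274) or WT replicates 3 and 4 (0.79, edgeR adjusted p = 0.000106). Between the treatments it was called lower with the preparation as a block (−0.50, edgeR adjusted p = 0.00155), without WT replicate 1 (−0.45, edgeR adjusted p = 0.0459) or 3 (−0.45, edgeR adjusted p = 0.0237), without WT replicates 3 and 4 (−0.49, edgeR adjusted p = 0.00211), with library totals (−0.72, edgeR adjusted p = 0.0218) and on the log2(TPM + 1) scale (−0.83, limma adjusted p = 0.0207). The median of all genes was −0.23 with library totals and −0.30 on the log2(TPM + 1) scale.

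In the nuclear complex, 7 of 12 genes were lower and 1 was higher between the genotypes (28.2% and 28.9% of all genes). On the TMM scale 5 were called higher and none lower with Igfbp2 (14.2% and 10.7% of all genes). *Rbpj* was at 85.5 CPM in WT and 63.7 CPM in vehicle-treated *Ncf1*-/- NSCs (−0.42 ± 0.09, edgeR adjusted p = 0.0013) and at 68.2 CPM with Igfbp2 (0.10 ± 0.09 between the treatments, edgeR adjusted p = 0.446, and −0.38 on the log2(TPM + 1) scale). With the length offset its difference between the genotypes was −0.19 (edgeR adjusted p = 0.0535). *Spen*, a corepressor of Rbpj, was at 254 CPM in WT and 102 CPM in vehicle-treated *Ncf1*-/- NSCs (−1.31 ± 0.13, edgeR adjusted p = 2.23e-06).

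Among 7 Hes and Hey factors tested, the 4 described above were the ones called between the genotypes, where 57.2% of all genes were called. Of the 3 proneural factors that passed the filter, 2 were called lower between the genotypes (28.2% of all genes were). None was called between the treatments (25.0% of all genes were). *Neurod1*, a later neuronal factor, had 10 to 24 counts per WT library, 1 to 5 in vehicle-treated and 0 to 2 in Igfbp2-treated *Ncf1*-/- libraries, and was called lower between the genotypes (−2.45 ± 0.48, edgeR adjusted p = 0.000769).

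Genes whose log2 CPM followed *Hes1*, *Hes5* and *Dll1* most closely over the 12 libraries were sought among genes outside the pathway with a mean of at least 5 CPM. For *Hes1* they were *Arhgap18* (Pearson's r = 0.995), *Rab3b* (0.993) and *Mtmr11* (0.993), for *Hes5* *Fcho1* (0.980), *Galnt10* (0.972) and *Brinp3* (0.972), and for *Dll1* *Phf21b* (0.965), *Glb1l* (0.951) and *Fbxo44* (0.949). *Rab3b*, a Rab GTPase of vesicle release, had means of 7.17, 62.4 and 103 CPM in WT, vehicle-treated and Igfbp2-treated *Ncf1*-/- NSCs, and *Fcho1*, an endocytosis protein, had 11.9, 8.97 and 6.40 CPM. These values describe likeness over 12 libraries that share 3 group means, and carry no test.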

How the data were processed

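RNA from 12 NSC cultures (4 WT, 4 vehicle-treated and 4 Igfbp2-treated *Ncf1*-/-) was analysed. The authors mapped reads with Bowtie2 and quantified them with RSEM on GRCm38 (per the labels), and deposited per gene the expected count, without normalization, and TPM. The merged table deposited by the authors, a score equal to TPM times how many transcripts a gene has, gave only gene symbols, and FPKM values were not used. The strand setting and annotation release are not given in the sources used here, so reads of overlapping antisense genes cannot be told apart.

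Expected counts were rounded. Genes were kept by filterByExpr (15706 genes, 99.9% of counts), scaled by TMM and tested with edgeR 4.0.16 in R 4.3.3 in 1 quasi-likelihood model over the 3 groups, two-sided, with Benjamini-Hochberg adjustment over all genes tested and a threshold of 0.05. Totals ranged from 18201622 to 34086554. The spread within groups, as biological coefficient of variation, was 0.250 in WT, 0.118 in vehicle-treated and 0.122 in Igfbp2-treated libraries. Alternatives used DESeq2 1.42.0, limma 3.58.1 on log2(TPM + 1), log2(TPM + 0.1) and TPM without 5 structural RNAs, the study's one-way model with Tukey's test on TPM, library totals, no filter, only the 2 groups compared, a preparation block and each library left out. The fit with the preparation block left out the WT libraries. A length offset and leaving out WT replicates 3 and 4 together were added after seeing the data. The tests were tried on simulated data. The study pairs same-numbered *Ncf1*-/- cultures by animal, but their deviations from the group means correlated at −0.0673 to 0.0328 over 4 pairs, against −0.248 to 0.257 for other numbers.

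The 10 genes and the gene lists were chosen with earlier results of these data known. All 10 were named, and in each role of the pathway list the called gene with the smallest adjusted p-value between the genotypes and between the treatments, with *Rbpj* and *Nrarp* in any case. Some genes that this rule names are not reported here. For *Hes1*, *Hes5* and *Dll1* the 3 most correlated genes outside the list were named. The lists of neuronal and mesenchymal markers gave 5 of 6 and 1 of 4 genes lower and 0 and 3 higher between the genotypes.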

Additional observations from a re-analysis of the deposited data

Results flagged for a closer look

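In 3 of the 30 groups of 4 libraries examined (10 genes in 3 groups), 1 library lay apart from the other 3 by more than Dixon's 95% limit for 4 values, and chance alone gives about 1 in 20. *Jag1* was at 34.9 CPM in Igfbp2-treated *Ncf1*-/- replicate 3, against 16.5 to 18.9 CPM in the others, a gap of 0.867 of the range. In the same library *Hes5* was at 16.4 CPM against 23.9 to 25.0 CPM (0.871 of the range). *Hes6* was at 64.8 CPM in Igfbp2-treated *Ncf1*-/- replicate 1, against 54.9 to 56.1 CPM (0.878 of the range). Without replicate 3 the rise of *Jag1* with Igfbp2 was 0.37 on the log2 scale (edgeR adjusted p = 0.15), while the fall of *Hes5* was still called.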

How the results depend on the processing

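Among the alternatives to the log2 fold changes of the 10 genes, 548 kept direction and side of the threshold, 78 lost the call, 23 gained one and 21 reversed. By the study's one-way model and Tukey's test on TPM, 4 of the 10 genes were called between the genotypes, 0 between the treatments and 4 between Igfbp2-treated *Ncf1*-/- and WT NSCs, and 18, 2 and 26 of the pathway list. That test called 4328, 2148 and 5592 of 27880 genes. Between the treatments 3 of the 10 genes had an unadjusted Tukey p under 0.05, and edgeR called 6, DESeq2 6 and limma on log2(TPM + 1) 4. Of 15706 genes edgeR called 3923, DESeq2 4287 and limma 6354 in that comparison. With limma on log2(TPM + 1) or log2(TPM + 0.1), 25 pathway genes were called between the genotypes and 5 of the 10 genes between Igfbp2-treated *Ncf1*-/- and WT NSCs. Out of 15706 genes, these limma fits called 6659 and 6541 in the former comparison, where edgeR called 8978. In the latter they called 8859 and 9047, where edgeR called 9801. Without WT replicates 3 and 4, 29 pathway genes and 6028 of 16306 genes were called between the treatments. Leaving out 1 library at a time gave 7 to 9, 4 to 7 and 6 to 10 of the 10 genes and 36 to 43, 9 to 25 and 33 to 41 of the pathway list, in the order vehicle-treated against WT, Igfbp2-treated against vehicle-treated and Igfbp2-treated against WT. In the same order these fits called 8254 to 9406, 2294 to 4872 and 9192 to 10031 of all genes.

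Directions reversed as follows. Between the genotypes *Notch1* was 0.10 with the length offset, and *Dll1*, not called, was −0.0428 with limma on TPM without structural RNAs and ranged from −0.123 to 0.276 in the fits that left out 1 library. Between the treatments *Notch1* was −0.0218 on log2(TPM + 1) and −0.0231 on log2(TPM + 0.1). Between Igfbp2-treated *Ncf1*-/- and WT NSCs, *Notch1* was −0.28 on log2(TPM + 1), −0.29 on log2(TPM + 0.1), −0.14 without structural RNAs and −0.31 as a ratio of mean TPM. In the same order, without the fit that removed structural RNAs, *Notch3* was −0.0276, −0.0251 and −0.12 and *Hes6* was −0.14, −0.14 and −0.15. In these settings the median of all genes was also below 0. Between the treatments it was −0.30 on log2(TPM + 1) and −0.42 on log2(TPM + 0.1). Between Igfbp2-treated *Ncf1*-/- and WT NSCs it was −0.25 on log2(TPM + 1), −0.40 on log2(TPM + 0.1), −0.23 without structural RNAs and −0.43 as a ratio of mean TPM. *Notch3* and *Hes6* lay above that median in each fit named for them, and *Notch1* lay below it only on log2(TPM + 1) against WT. The cause was not tested.

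The fit with the replicate block by preparation left out the WT libraries. It called 7 of the 10 genes, 25 pathway genes and 5423 of all genes between the treatments. With only the 2 groups compared and no block 5809 genes were called, and with all 12 libraries and no block 3923. Unlike the model of all 12 libraries, the fit with the block called *Dll3* and *Hes1* and did not call *Jag1*. No other call among the 10 differed. *Dll3* and *Hes1* were also called with only the 2 groups compared and no block. With 4 libraries a group, depth and number limit what low genes such as *Jag1* (7.46 to 34.9 CPM) can show.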
